A study of Mus musculus with 12 samples.

Results

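The RNAs of 85 mouse genes whose symbols name a subunit of the mitochondrial respiratory chain or of the ATP synthase were followed across 4 groups of sorted epidermal keratinocytes. The genes were taken by symbol alone: every array feature with 1 gene symbol beginning Nduf (followed by a, b, c, s or v and a digit), Sdha to Sdhd, Uqcr, Cox4 to Cox8 or Atp5. Of 90 such features, called transcript clusters on this platform, 2 with a pseudogene suffix were left out and 88 remained. Where a gene had several clusters, as Atp5l, Atp5g2 and Atp5d did, the cluster with the highest mean over all arrays was kept. The 85 members stand among 65956 non-control clusters measured. They comprise 37 genes of complex I, 4 of complex II, 8 of complex III, 18 of complex IV and 18 of complex V.

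The respiratory chain sits in the inner mitochondrial membrane. Complexes I and II pass electrons from NADH and succinate to ubiquinone, complex III hands them on to cytochrome c, complex IV reduces oxygen, and complex V (ATP synthase) uses the proton gradient so formed to make ATP. All subunits of complex II and most of the other complexes are encoded in the nucleus and imported, while a small set is made inside the organelle from mitochondrial DNA. In skin the chain supplies ATP to the dividing basal keratinocytes, and the cells lose their mitochondria late in differentiation, as they cornify.

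Keratinocytes from the skin of FVB/N mice at postnatal day 4 were sorted into basal and suprabasal cells, and total RNA of 12 samples was hybridised to Affymetrix MTA-1_0 arrays. Each layer was measured in wild-type and bitransgenic animals, with 3 arrays per group. The labels do not describe the transgenes or their promoter. The series title names progerin, the truncated lamin A of Hutchinson-Gilford progeria. Values are log2 RMA signals. Arrays are named by the replicate codes of the labels: both wild-type groups were made from X667_06, X682_11 and X721_08, the bitransgenic basal group from X721_05, X667_05 and X722_07, and the bitransgenic suprabasal group from X721_05, X667_05 and X682_05. Values below are listed in that order. Nothing in the labels ties a code to a separate animal. P-values therefore measure only the spread between these samples, which may be technical, and 3 arrays per group limit the precision.

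The layer labels were checked against marker genes. The mean log2 value of 11 basal keratinocyte markers lay between 10.32 and 10.64 on the basal arrays and between 9.24 and 10.28 on the suprabasal arrays, and that of 10 suprabasal markers between 9.87 and 10.40 and between 10.56 and 11.26. Melanocyte markers also moved with the layer. The mean of 8 such genes lay between 5.98 and 7.06 on the basal arrays and between 7.68 and 11.32 on the suprabasal arrays, where 6 of 8 in wild-type and 3 of 8 in bitransgenic samples were above background on all 3 arrays. Markers of other cell types also read lower in wild-type basal than suprabasal cells: 6 of 7 fibroblast markers, of which only Vim was above background on any array (-3.23, called), 6 of 6 Merkel cell markers (1 called) and 8 of 8 adipocyte markers (1 called). Of the adipocyte markers 7 were under background on every array. Over all clusters 60.4% were lower in this comparison and 1.04% were called lower. The Merkel, 8 skeletal muscle, 8 immune and 6 endothelial markers were above background on none of the arrays. The part of RNA from other cell types in the layer differences below was not tested. In sorted bulk samples fewer cells of a type and less RNA per cell cannot be told apart.

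A cluster was taken as above background on an array when its value exceeded the 95th percentile of 5222 intronic control sets of that array, a mark between 8.04 and 8.81. By this measure 48 of 85 members were above background on all 12 arrays, 20 on some and 17 on none. The 48 were 23 members of complex I, 1 of complex II (Sdhb, the iron-sulfur subunit of succinate dehydrogenase), 6 of complex III, 8 of complex IV and 10 of complex V. Being under the mark does not show that an RNA was absent: Ndufs1, the large iron-sulfur subunit of complex I, and Cox6c, a small subunit of complex IV, were under it on every array. Levels of different clusters were not compared with each other, since their probes differ.

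Some clusters may not report their gene alone. The Atp5l cluster lies on chromosome 5 over the pseudogene Gm10221, while the gene is on chromosome 9, and the Atp5g2 cluster lies on chromosome 7 over the pseudogene Gm10175, while the gene is on chromosome 15. The Atp5l2 cluster covers a locus annotated as a pseudogene. RNA of a parent gene and of its copies could not be told apart in such clusters. By position the Cox7b cluster on the X chromosome overlaps Atrx and Magt1 as well, and 18 of the 85 clusters overlap more than 1 protein-coding RefSeq gene. Strand was not compared, so these overlaps do not show that a cluster reads RNA of the other gene. The rule also takes in Atp5s and Atp5sl, now named Dmac2l and Dmac2, which are not subunits of the ATP synthase, and both were under the mark on every array.

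**Figure D1:**
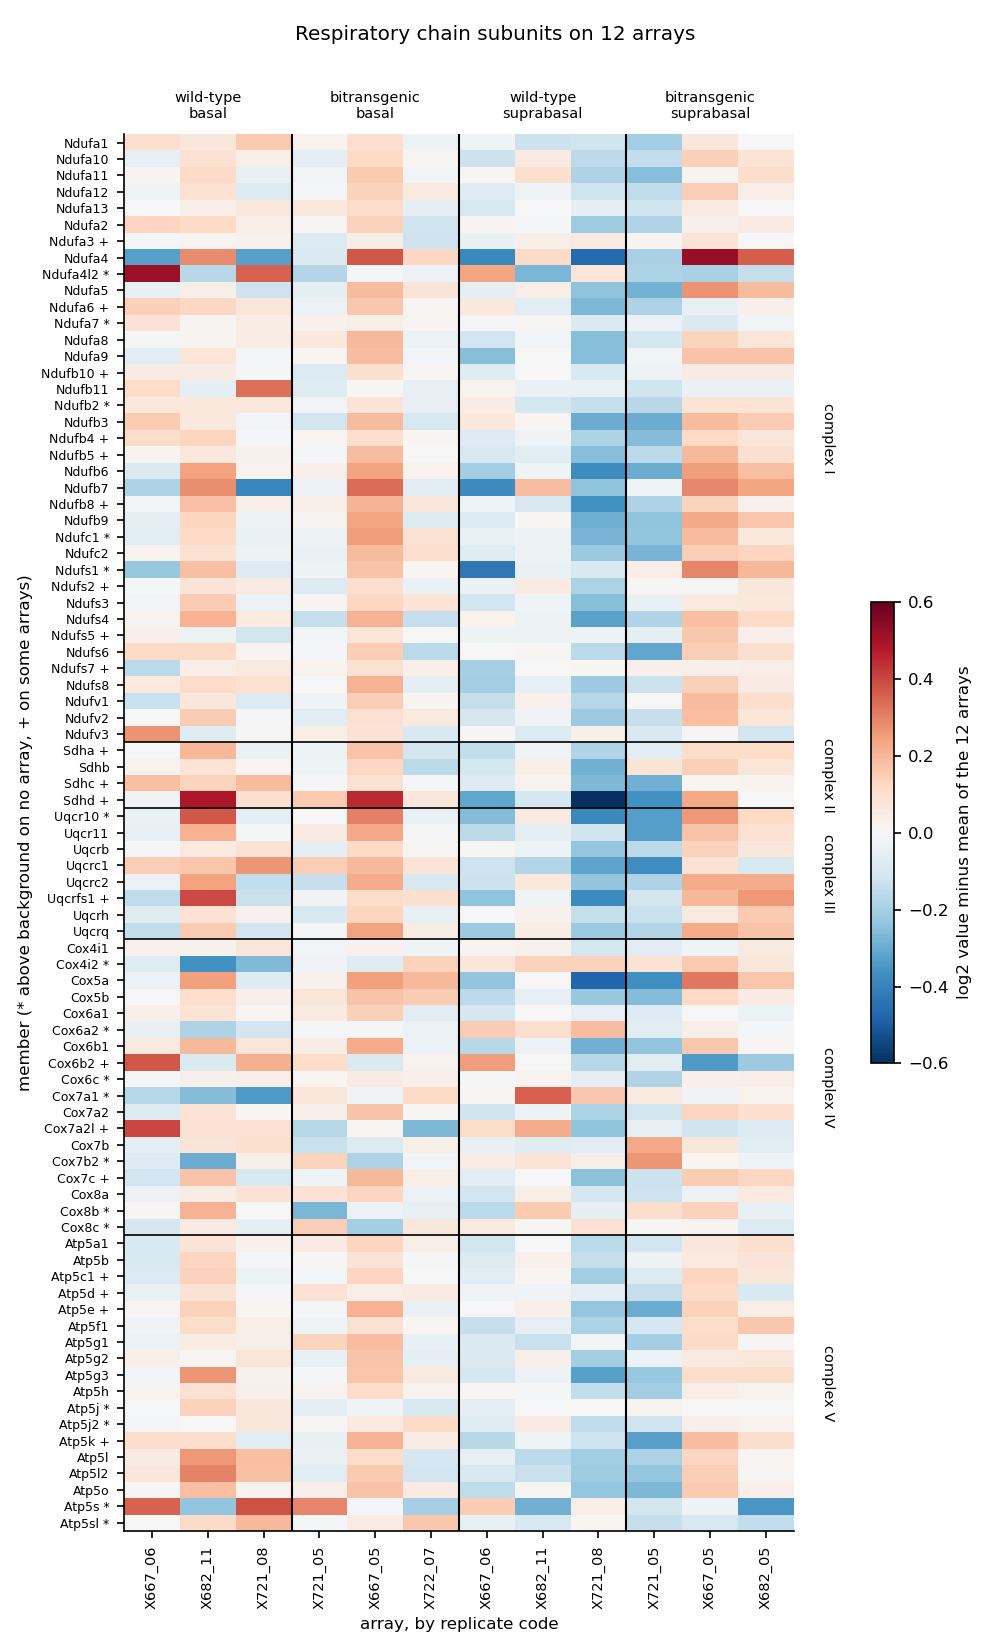
Each row is 1 of the 85 members and each column 1 of the 12 arrays, with colour giving the log2 value minus the member's mean over the 12 arrays. The suprabasal arrays of X721_08 and X721_05 are mostly blue and both X667_05 arrays mostly red, across complexes I to V, while Ndufa4 and Ndufb7 vary by replicate code.

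Many members deviated together on single arrays. The median deviation of the 85 members from their own means was -0.19 on the suprabasal X721_08 array and -0.14 on the suprabasal X721_05 array, with 73 of 85 members under their mean on each. It was 0.13 and 0.12 on the basal and suprabasal arrays of X667_05, with 74 and 73 of 85 over their mean. The other 8 arrays lay between -0.072 and 0.091. The same arrays stood apart in their background mark, which was highest on the suprabasal X721_08 and X721_05 arrays (8.71 and 8.81) and lowest on the X667_05 arrays (8.08 and 8.04). The basal X721_08 array had a mark of 8.66 with a member median deviation of 0.02, so the pairing of mark and level did not hold on all arrays. Whether the mark accounts for the shift was not tested.

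Within groups the members were tightly measured. The median SD of a member between replicate arrays, pooled over the 4 groups, was 0.11 log2 units over the 85 members, beside 0.12 over all clusters and 0.15 over the 4093 clusters above background on all 12 arrays. Cox4i1, the ubiquitous form of subunit 4 of cytochrome c oxidase, spread by only 0.18 over all 12 arrays. Ndufa4, assigned to complex I by its name but now counted with complex IV, had the widest pooled SD, 0.32.

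Ndufa4 varied mostly by replicate code. Its log2 values were 10.69, 11.30 and 10.69 in the wild-type basal group, and 10.63, 11.13 and 10.55 for the same codes in the suprabasal group. In bitransgenic cells they were 10.93, 11.39 and 11.14 in basal and 10.82, 11.54 and 11.38 in suprabasal samples. X682_11 was high and X667_06 and X721_08 were low in both layers, and all 4 groups overlapped. Over the 10 arrays of the 5 codes measured in both layers, 96.1% of the variation of Ndufa4 in sum of squares lay between codes and 1.0% between layers. For Ndufb7, a supernumerary subunit of complex I, the shares were 94.8% and 0.5%. Over all members the medians were 56.7% and 23.0%, over the 4093 clusters above background on all arrays 54.9% and 16.6%, and over all clusters 42.2% and 13.9%. The 5 codes take up more of a sum of squares than the layers by their number alone, so the sizes of the shares cannot be set against each other. The share between codes also holds differences of genotype and sex.

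In wild-type mice most subunit RNAs were slightly higher in basal than in suprabasal cells. The difference was above 0 for 78 of 85 members and for all 48 above background on every array, with a median over the 85 of 0.13 log2 units, a range from -0.43 to 0.55, and a median of 0.135 over the 48. The same comparison gave a median of -0.047 over all clusters and 0.11 over the 4093 bright ones, of which 79.0% were higher and 20.7% lower in basal cells. Over all clusters 38.9% were higher and 60.4% lower. No member was called higher and 1 was called lower at an adjusted p under 0.05 in the limma fit over all clusters, where 0.406% of clusters were called higher and 1.04% lower (0.538% and 0.831% of the bright ones). At an unadjusted p under 0.05 there were 10 members higher and 3 lower, beside 6.08% and 16.7% of all clusters and 14.5% and 6.99% of the bright ones. The wild-type groups did not overlap for 24 members higher in basal cells and for 3 lower, beside 7.38% and 20.2% of all clusters and 18.9% and 7.28% of the bright ones. The size of the shift depended on how the arrays were scaled. With arrays centred on their medians the member median was 0.227, with 81 of 85 and 48 of 48 bright members above 0, beside 86.5% of the bright clusters. With cyclic loess it was 0.039, with 57 of 85 and 28 of 48 above 0, beside 46.5%.

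**Figure D2:**
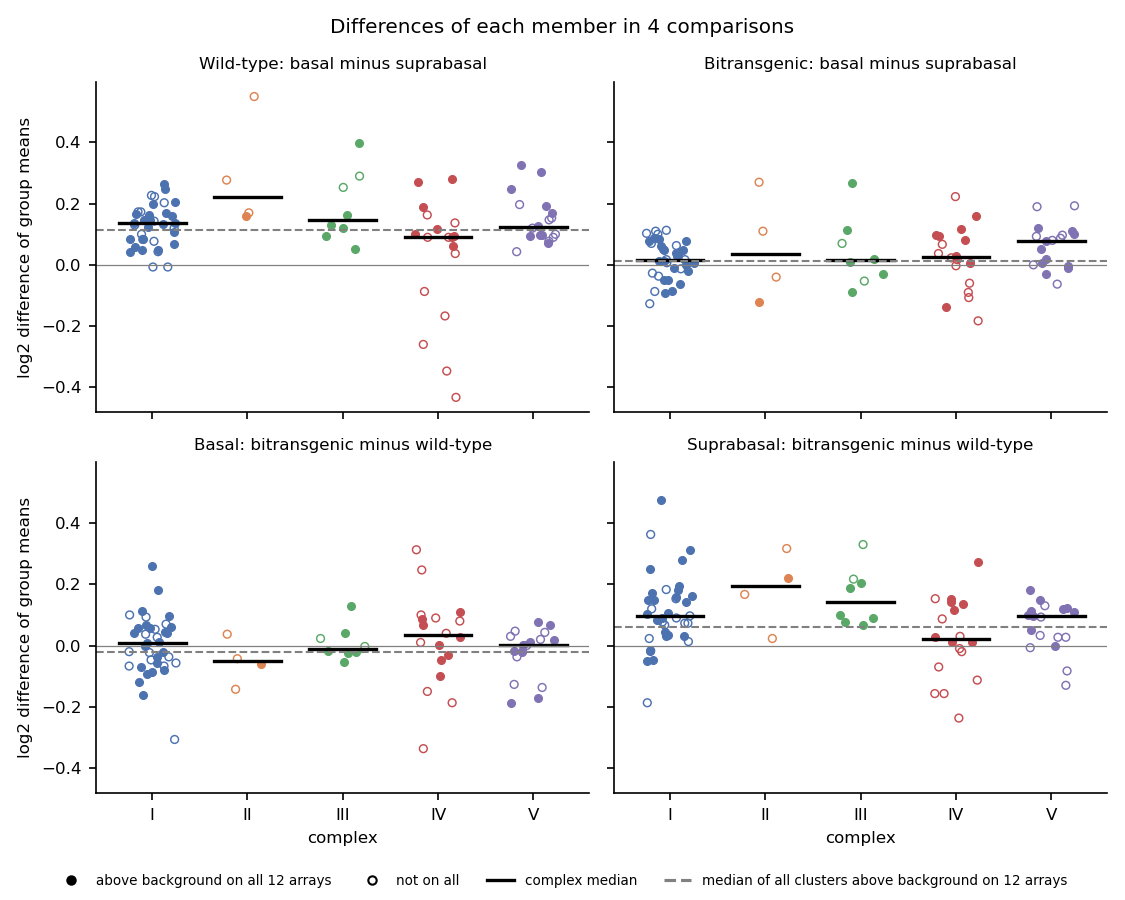
Points are the log2 differences of group means of the 85 members in 4 comparisons, by complex, with black bars at the complex medians and a dashed line at the median of the 4093 clusters above background on all 12 arrays. Filled members lie near the dashed line in each panel, and the points lowest in the wild-type layer comparison are open members of complex IV.

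By complex the wild-type medians were 0.14 for complex I (35 of 37 above 0), 0.22 for complex II (4 of 4), 0.15 for complex III (8 of 8), 0.09 for complex IV (13 of 18) and 0.12 for complex V (18 of 18). The 21 core subunits, which include the catalytic and iron-sulfur subunits, were all above 0 with a median of 0.16, and none was called. For 70 of the 85 members the 95% confidence interval of the difference lay within 0.5 log2 units either side of 0, beside 75.7% of all clusters and 64.8% of the bright ones.

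Uqcrc1, a core protein of complex III, had the smallest p of the members above background. Its cluster lies on chromosome 9, from 108936648 to 108949641 on the plus strand of mm10. In wild-type basal cells it read 11.28, 11.30 and 11.40, and in wild-type suprabasal cells 11.01, 10.96 and 10.82. Every basal array was above every suprabasal array. The means were 11.33 ± 0.06 and 10.93 ± 0.10 (SD, n = 3), a log2 difference of 0.40 (SE 0.104) or 1.32-fold, which did not pass the test (limma adjusted p = 0.0738). In bitransgenic cells it read 11.28, 11.33 and 11.21 in basal and 10.76, 11.22 and 11.04 in suprabasal samples, a difference of 0.27 (SE 0.104, limma adjusted p = 0.621), and these groups overlapped at the suprabasal X667_05 array. It was higher in the basal sample of all 5 codes measured in both layers, by 0.11 to 0.58. With the code as a random replicate block, limma's adjusted p for the wild-type difference was 0.0444, and with the code as a fixed replicate block it was 0.0798.

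Sdhd, a membrane anchor subunit of complex II, had the largest difference among the members in wild-type cells. Basal arrays read 9.02, 9.53 and 9.14 and suprabasal arrays 8.73, 8.94 and 8.37, with the lowest basal value just above the highest suprabasal one. The difference was 0.55 (SE 0.193; 95% interval 0.12 to 0.98), or 1.46-fold, with a limma adjusted p of 0.133. Bitransgenic arrays read 9.20, 9.49 and 9.11 in basal and 8.68, 9.27 and 9.04 in suprabasal cells, where the groups overlapped. Within codes it was higher in the basal sample in 5 of 5, by 0.22 to 0.77. The suprabasal arrays of X721_08 and X721_05 read under their background mark, and those 2 arrays also gave the lowest Sdhd values. Sdhc, the other membrane anchor, differed by 0.28 (SE 0.0952, limma adjusted p = 0.128) and was above background on 3 of 12 arrays.

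**Figure D3:**
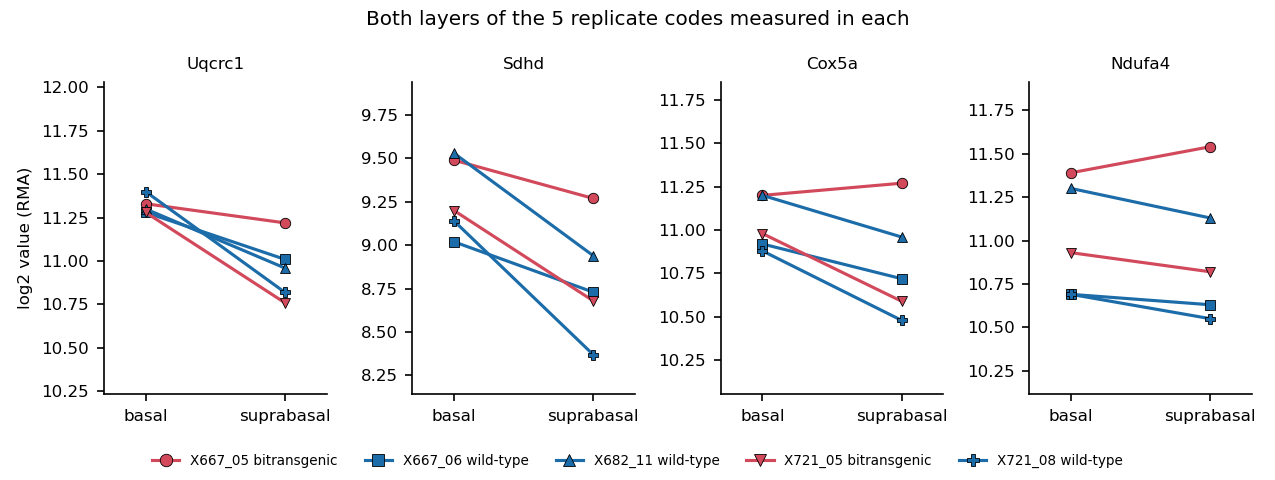
Lines join the basal and suprabasal log2 values of each of the 5 replicate codes measured in both layers, 3 wild-type in blue and 2 bitransgenic in red. Uqcrc1 and Sdhd are lower in the suprabasal sample of all 5 codes and Cox5a of all but X667_05, and Ndufa4 keeps the order of the codes.

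Among members higher in wild-type basal cells the next by p after Uqcrc1 were Atp5l and Atp5l2. Their differences were 0.30 (SE 0.0943) and 0.33 (SE 0.106), with limma adjusted p of 0.103 and 0.113. Both clusters lie on pseudogenes of the ATP synthase g subunit, a small membrane subunit, and share sequence with it, so they are not separate evidence. Taking the codes one by one, most members were higher in the basal sample of each: 70 of 85 in X667_06, 72 in X682_11, 76 in X721_08, 70 in X721_05 and 53 in X667_05. The medians were 0.09, 0.11, 0.19, 0.14 and 0.03, in that order, where those of the bright clusters were 0.03, 0.14, 0.16, 0.05 and 0.00. The codes give layer pairs of the same sign in both genotypes, with X667_05 nearest to 0.

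The only member called was Cox7a1, the heart and skeletal muscle form of subunit 7a of complex IV. Its cluster (chromosome 7, 30184171 to 30186030) read 5.96, 5.87 and 5.79 in wild-type basal and 6.14, 6.49 and 6.29 in wild-type suprabasal cells. Every basal value was under every suprabasal value, and over all 12 arrays the cluster lay between -2.87 and -1.72 log2 units from the background mark. The log2 difference was -0.43 (SE 0.0866, limma adjusted p = 0.0459), and no fold is given because neither group was above background. The call was lost with the code as a fixed replicate block (limma adjusted p = 0.0899), without both arrays of X721_08 (0.275), and on leaving out 9 of the 12 arrays one at a time, with adjusted p between 0.052 and 0.14. With a random replicate block 4 members were called, Uqcrc1 higher and 3 lower. Cox6a2, another muscle form, and Cox4i2, a form known from lung, also read lower in wild-type basal cells, with log2 differences of -0.26 and -0.35 (limma adjusted p of 0.051 and 0.0606), and were under background on every array.

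The promoters of 4 members are shown because these carried the differences described: Uqcrc1 and Sdhd for the layers, Ndufa9 for the genotypes in suprabasal cells (below), and Cox7a1 as a tissue-restricted form. Each window runs from 250 bases before to 50 after the RefSeq gene start (GRCm38.p6). Capitals mark matches on either strand to motifs of factors known to act on nuclear respiratory genes, namely NRF1 (its long palindromic motif, and the shorter TGCGCA that can overlap it), GABP (CCGGAAG) and YY1 (AAGATGGCG).
Uqcrc1 promoter, chr9:108936398-108936697 (+ strand): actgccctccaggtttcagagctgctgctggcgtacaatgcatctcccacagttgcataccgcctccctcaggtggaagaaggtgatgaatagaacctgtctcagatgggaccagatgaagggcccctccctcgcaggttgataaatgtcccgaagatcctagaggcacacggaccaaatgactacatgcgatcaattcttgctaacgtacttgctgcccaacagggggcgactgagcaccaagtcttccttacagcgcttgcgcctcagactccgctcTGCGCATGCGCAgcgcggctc
Sdhd promoter, chr9:50603800-50604099 (- strand): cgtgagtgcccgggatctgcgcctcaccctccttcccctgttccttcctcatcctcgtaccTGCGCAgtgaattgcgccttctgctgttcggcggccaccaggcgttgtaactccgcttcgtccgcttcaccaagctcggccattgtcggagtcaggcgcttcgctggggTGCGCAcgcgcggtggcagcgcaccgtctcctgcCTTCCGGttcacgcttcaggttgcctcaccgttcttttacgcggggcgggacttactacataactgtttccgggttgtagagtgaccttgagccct
Ndufa9 promoter, chr6:126849095-126849394 (- strand): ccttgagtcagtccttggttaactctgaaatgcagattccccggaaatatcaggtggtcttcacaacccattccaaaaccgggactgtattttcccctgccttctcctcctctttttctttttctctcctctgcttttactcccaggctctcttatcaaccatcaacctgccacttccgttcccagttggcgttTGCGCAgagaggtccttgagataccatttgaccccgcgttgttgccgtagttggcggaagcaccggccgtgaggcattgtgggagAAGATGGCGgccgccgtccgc
Cox7a1 promoter, chr7:30183921-30184220 (+ strand): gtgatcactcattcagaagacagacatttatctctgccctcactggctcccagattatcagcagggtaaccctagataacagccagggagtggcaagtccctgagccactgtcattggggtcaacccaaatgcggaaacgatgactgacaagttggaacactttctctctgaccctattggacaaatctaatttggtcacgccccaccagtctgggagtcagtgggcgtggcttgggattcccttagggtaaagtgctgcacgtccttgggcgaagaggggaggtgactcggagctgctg

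The Uqcrc1 window holds the long NRF1 motif, from base 281, with 2 overlapping matches to the short form. The Sdhd window holds 2 short NRF1 matches and a GABP match, the Ndufa9 window a short NRF1 match and a YY1 match, and the Cox7a1 window none of these letters. Windows were found for 67 members whose cluster lies on their own gene. The long NRF1 motif stood in 4 of these (5.97%; Atp5k, Cox6a1, Ndufa11 and Uqcrc1), beside 1.47% of 17492 coding genes, and the short form in 16 (23.9%) beside 11%. GABP matches stood in 15 (22.4%) beside 12.9%, and YY1 matches in 8 (11.9%) beside 2.14%. TATAAA was found in 6 members (8.96%) and in 14.8% of coding genes. A match is a run of letters and says nothing of binding in these cells.

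In bitransgenic mice fewer members were higher in basal cells. The basal minus suprabasal difference was above 0 for 56 of 85 members and below 0 for 27, with a median of 0.03, beside 0.02 over all clusters (57.0% higher, 41.8% lower) and 0.013 over the bright ones (55.0% and 43.6%). With cyclic loess that member median was -0.007, so it has no settled sign. No member was called, nor was any cluster in limma (0.0% higher and 0.0% lower). At an unadjusted p under 0.05 there were 2 members higher, Uqcrc1 and the under-background Atp5sl, and 0 lower, beside 4.33% and 3.12% of all clusters and 3.01% and 3.71% of the bright ones. The groups did not overlap for 2 members higher and 1 lower, beside 8.08% and 4.27% of all clusters and 6.35% and 4.57% of the bright ones. The other members with the smallest p, none of them called, were Cox5b (0.16), Cox6b2 (0.22) and Ndufa7 (0.07) on the higher side and Cox8b (-0.18), Cox7b (-0.14), Sdhb (-0.12), Ndufa3 (-0.087) and Atp5j (-0.063) on the lower, all log2 differences. The group median of 0.03 combined unlike samples: within X721_05 the median was 0.14, inside the range of the 3 wild-type codes (0.09 to 0.19), and within X667_05 it was 0.03. The X722_07 and X682_05 arrays have no partner in the other layer. Complex medians lay between 0.015 and 0.078. The interval lay within 0.5 log2 units of 0 for 79 of 85 members, beside 81.7% of all clusters and 72.9% of the bright ones. The authors' deposited table likewise lists no member with a q-value under 0.05 in any of its 4 comparisons, with a smallest q of 0.111 in the wild-type layer comparison and of 0.686 in the bitransgenic one.

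The difference between the 2 layer effects was tested directly, as the bitransgenic minus the wild-type layer difference. It was below 0 for 71 of 85 members, with a median of -0.107 over all 85, beside 0.06 over all clusters (62.9% above 0, 36.5% below) and -0.09 over the bright ones (23.1% above, 76.1% below). The member median was -0.21 with arrays centred and -0.042 with cyclic loess. Of the 2 bitransgenic codes measured in both layers, only X667_05 had a layer median under those of the wild-type codes. No member and no cluster was called (limma, 0.0% in each direction). At an unadjusted p under 0.05 there were 3 members higher, all under background (Cox7a1, Cox6a2 and Cox4i2), and 2 lower (Atp5l and Sdhb), beside 8.94% and 1.27% of all clusters and 1.69% and 2.0% of the bright ones. The next by p were Cox8c (0.11) and Atp5d (0.053) above 0, and Atp5l2 (-0.31), Cox7b (-0.24) and Atp5j (-0.15) below. The smallest limma adjusted p of a member was 0.399. All 21 core subunits were below 0, with a median of -0.163. The 95% interval was within 0.5 log2 units of 0 for 59 of 85 members, beside 61.2% of all clusters and 51.8% of the bright ones.

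**Figure D4:**
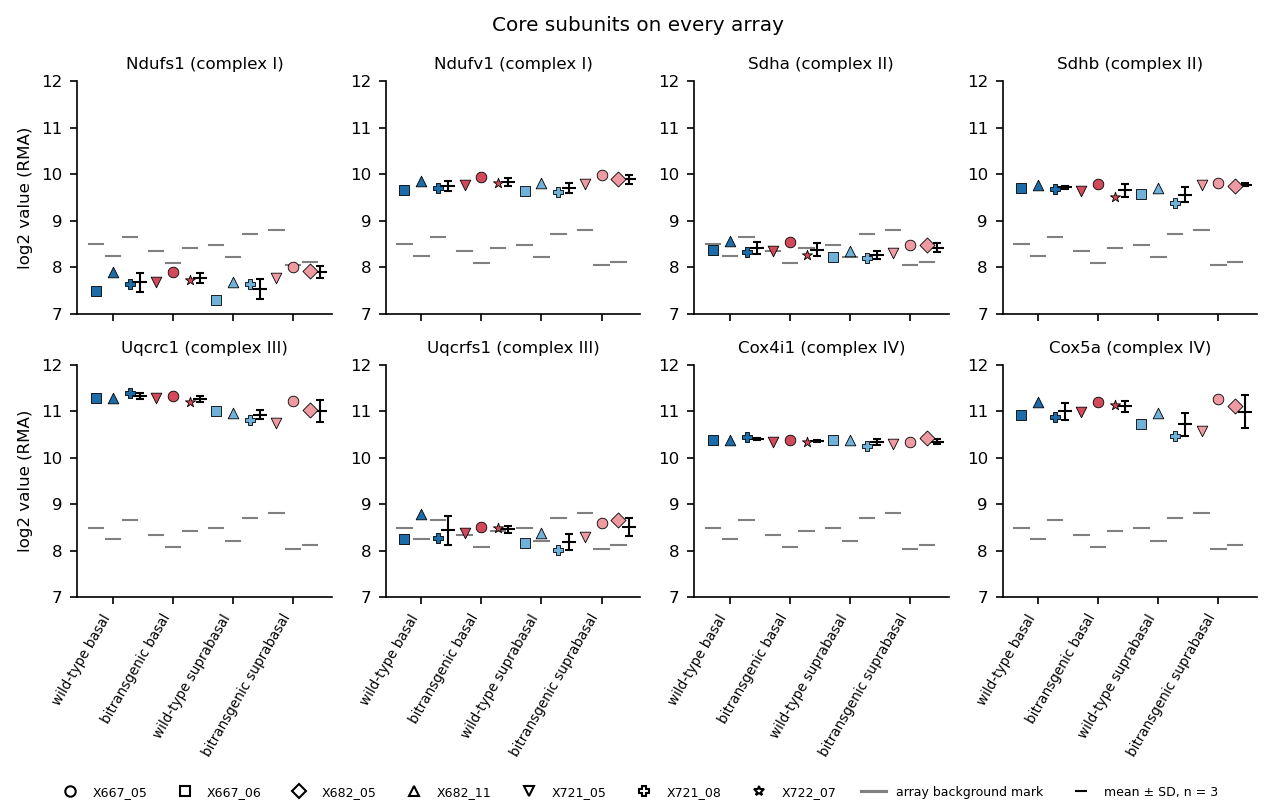
Log2 values of 8 core subunits on each of the 12 arrays, with marker shape giving the replicate code, gray bars the background mark of each array and black bars the group mean ± SD (n = 3). Cox4i1 is nearly level across all arrays, Uqcrc1 has higher means on basal arrays, and Ndufs1 lies under the gray bars.

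The comparison of genotypes asks whether the bitransgenic cells differ from wild-type in the same layer. In basal cells 44 members were higher and 40 lower in bitransgenic samples, with a median of 0.003 and a range from -0.34 to 0.31, beside 0.04 over all clusters (61.4% higher, 37.7% lower) and -0.02 over the bright ones (44.4% and 55.0%). With arrays centred the member median was -0.047. None was called, nor was any cluster in limma (0.0% in each direction). At an unadjusted p under 0.05 there were 2 higher and 2 lower, beside 9.38% and 3.73% of all clusters and 3.27% and 6.57% of the bright ones. The groups did not overlap for 2 members higher and 4 lower, beside 11.8% and 5.01% of all clusters and 5.03% and 11.5% of the bright ones. The 2 higher at that p were Cox7a1 and Cox4i2, both under background. The lower ones were Atp5j, the coupling factor 6 subunit of the ATP synthase, also under background, and Cox7a2l. Next by p were Cox6a2 (0.10), Ndufa4 (0.26) and Ndufv1 (0.097) on the higher side, and Ndufa4l2 (-0.31), Atp5l (-0.17) and Ndufb11 (-0.16) on the lower. The intervals of 79 of 85 members lay within 0.5 log2 units of 0, beside 79.6% of all clusters and 68.6% of the bright ones.

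Cox7a2l, a subunit-7a relative known to join complexes III and IV into supercomplexes, read 8.99, 8.68 and 8.68 (wild-type) and 8.42, 8.60 and 8.32 (bitransgenic) on basal arrays. Every bitransgenic value was under every wild-type value. The log2 difference was -0.34 (SE 0.126; limma adjusted p = 0.321), or 0.792-fold, and the cluster was above background on 9 of 12 arrays. In suprabasal cells it read 8.70, 8.81 and 8.35 (wild-type) and 8.54, 8.47 and 8.51 (bitransgenic), which overlapped.

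In suprabasal cells more members were higher than lower in bitransgenic samples, a direction not kept with a term for sex (median -0.007). X721_05 was the only bitransgenic code with the sex pattern of the wild-type arrays. That term therefore cannot tell sex from the deviation of X721_05 itself, and does not settle whether the direction follows sex or genotype. Without it the difference was above 0 for 69 of 85 members and below 0 for 15, with a median of 0.09. The median was -0.03 over all clusters (37.4% higher, 61.3% lower) and 0.06 over the bright ones (66.2% and 32.9%). None was called, nor was any cluster in limma (0.0% in each direction), and the smallest adjusted p was 0.866. At an unadjusted p under 0.05 there were 5 higher (Ndufa9, Sdhb, Atp5f1, Ndufv1 and, under background, Ndufs1) and 1 lower (Cox6a2, under background), beside 1.64% and 3.58% of all clusters and 7.21% and 1.44% of the bright ones. The groups did not overlap for 3 members higher and 1 lower, beside 2.52% and 9.79% of all clusters and 6.18% and 1.88% of the bright ones. The interval lay within 0.5 log2 units of 0 for 73 of 85 members, beside 82.8% and 70.7%. The member median was 0.147 with arrays centred (77 of 85 above 0) and 0.051 with cyclic loess (58 of 85). Differences ranged from -0.24 (Cox6b2) to 0.48 (Ndufa4), and the others on the lower side with the smallest p were Ndufa4l2 (-0.19), Cox7a1 (-0.16) and Atp5sl (-0.083). Complex medians were 0.10 for I, 0.19 for II, 0.14 for III, 0.02 for IV and 0.095 for V. All 21 core subunits were above 0, with a median of 0.15. Wild-type suprabasal samples are common to this comparison and to the wild-type layer comparison, so the 2 shifts are not independent. The suprabasal samples pair between genotypes by the first number of their codes: X667_05 with X667_06, X682_05 with X682_11, and X721_05 with X721_08. Within these pairs, in that order, 71, 65 and 50 of 85 members were higher in the bitransgenic sample, with medians of 0.18, 0.08 and 0.04, where the bright clusters had medians of 0.06, 0.07 and 0.08. With that number as a fixed replicate block no member was called.

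Ndufa9, an accessory subunit that holds the ubiquinone-binding arm of complex I in place, read 10.44, 10.70 and 10.44 (wild-type) and 10.68, 10.87 and 10.87 (bitransgenic) on suprabasal arrays. Within each of the 3 pairs the bitransgenic sample was higher, by 0.43, 0.17 and 0.24, while the unpaired groups overlapped at the X682_11 and X721_05 arrays. The difference was 0.28 (SE 0.0912), or 1.21-fold, with a limma adjusted p of 0.866. Sdhb read 9.57, 9.71 and 9.39 (wild-type) and 9.76, 9.82 and 9.75 (bitransgenic) on suprabasal arrays, with no overlap and pair differences of 0.25, 0.04 and 0.37, a mean difference of 0.22 (SE 0.0891, limma adjusted p = 0.866). In basal cells Sdhb read 9.70, 9.76 and 9.69 (wild-type) and 9.65, 9.80 and 9.52 (bitransgenic), which overlapped.

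Sex-linked RNAs were unequal between the genotypes. The bitransgenic X667_05, X722_07 and X682_05 arrays, 4 in all, had log2 values of Xist between 10.69 and 11.08 and of the Y-linked Ddx3y between 4.56 and 5.04, and the other 8 arrays had the reverse pattern, with Xist between 4.09 and 4.28. With a term for this pattern the member median became -0.092 for the genotypes in basal and -0.007 in suprabasal cells. All wild-type arrays share the same pattern, and X721_05 is the only bitransgenic code that has it. The term thus rests on X721_05 against the other bitransgenic codes. It cannot tell sex from the deviation of X721_05 itself, so it does not settle what part follows sex and what part genotype. Of the 3 suprabasal pairs, only X721_05 with X721_08 has the same pattern in both samples. Among X-linked members, Ndufa1, a small membrane subunit of complex I, differed between genotypes by -0.08 in basal and 0.043 in suprabasal cells, and Ndufb11, another, by -0.16 and -0.047. Cox7b differed by -0.10 and 0.14, and none of the 3 was called.

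Values of the core subunits follow by complex. Ndufv1, the NADH-binding subunit of complex I, read 9.66, 9.86 and 9.71 (wild-type) and 9.77, 9.94 and 9.81 (bitransgenic) on basal arrays, and 9.65, 9.82 and 9.62 (wild-type) and 9.79, 9.98 and 9.90 (bitransgenic) on suprabasal arrays. The groups overlapped in every comparison, and within the 3 suprabasal pairs the bitransgenic sample was higher by 0.33, 0.08 and 0.17. Cox4i1 read 10.39, 10.39 and 10.44 (wild-type) and 10.35, 10.39 and 10.34 (bitransgenic) on basal arrays, and 10.38, 10.39 and 10.26 (wild-type) and 10.30, 10.34 and 10.42 (bitransgenic) on suprabasal arrays. All 4 groups overlapped, and the 4 differences lay between -0.047 and 0.063.

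Cox5a, a nuclear-encoded subunit of complex IV next to its catalytic core, spread more widely. It read 10.92, 11.20 and 10.88 (wild-type) and 10.98, 11.20 and 11.15 (bitransgenic) on basal arrays, and 10.72, 10.96 and 10.48 (wild-type) and 10.59, 11.27 and 11.12 (bitransgenic) on suprabasal arrays. The groups overlapped in every comparison, with the lowest values on the suprabasal X721_08 and X721_05 arrays. Sdha, the flavoprotein of complex II, read 8.37, 8.57 and 8.33 in wild-type basal and 8.22, 8.35 and 8.19 in wild-type suprabasal cells, and was above background on 6 of 12 arrays. Uqcrfs1, the Rieske iron-sulfur protein of complex III, read 8.25, 8.80 and 8.27 in wild-type basal and 8.16, 8.38 and 8.02 in wild-type suprabasal cells, above background on 7 arrays. Ndufs1 read 7.49, 7.90 and 7.64 against 7.29, 7.68 and 7.63, under background throughout.

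The tissue-restricted forms of complex IV subunits were under background where their ubiquitous counterparts were above it. Cox4i2, Cox6a2, Cox7a1, Cox7b2, Cox8b, Cox8c and the Ndufa4 relative Ndufa4l2 were under the mark on all 12 arrays, at -0.93 log2 units from it or lower. Cox4i1, Cox6a1, Cox6b1, Cox7a2, Cox7b and Cox8a were above it on all 12, by at least 1.49. Cox6b2, a form known from testis, lay at the mark, between -0.66 and 0.10 log2 units from it, and passed it on 3 arrays in 3 groups. The 8 restricted forms had a median wild-type layer difference of -0.127, with 3 above 0 and 5 below, beside -0.047 over all clusters. All 8 skeletal muscle and all 7 heart or smooth muscle markers were under background on every array, and they too read lower in wild-type basal cells: 8 of 8 with a median of -0.135 (6 not overlapping, 1 called) and 7 of 7 with a median of -0.177. Over all clusters 60.4% were lower, 20.2% were lower without overlap and 1.04% were called lower. The lower values of Cox7a1, Cox6a2 and Cox4i2 stand beside a shift of the same sign in these muscle markers. It was not general among members under background: the 17 under it on every array had a median of 0.09, with 12 above 0 and 5 below.

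**Figure D5:**
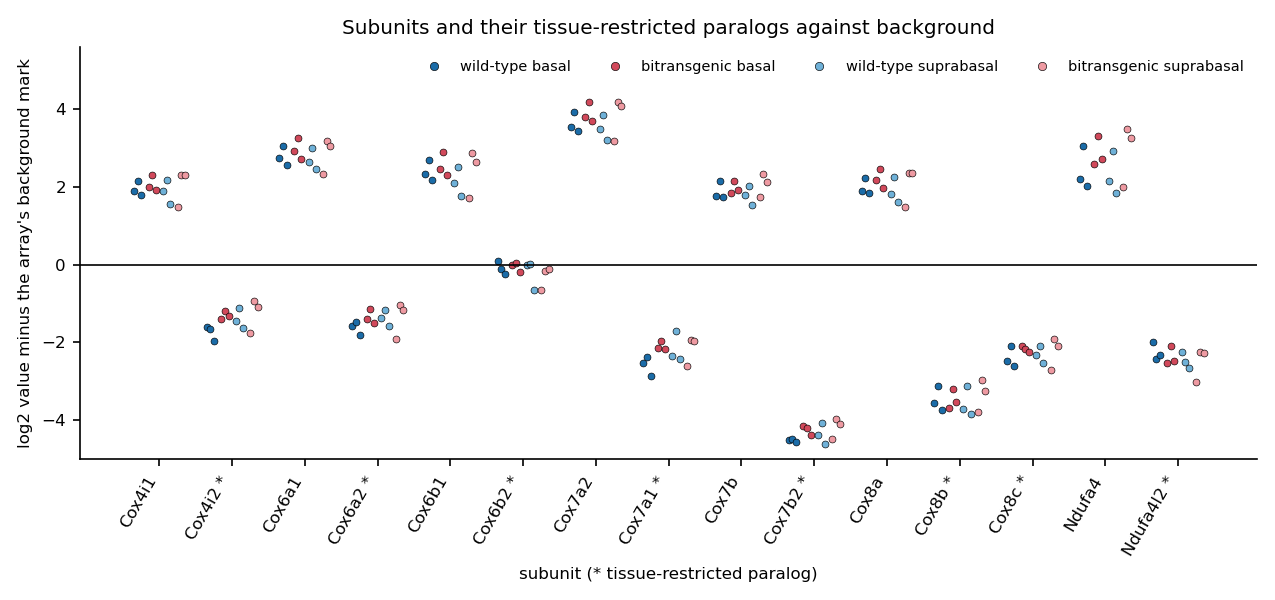
Log2 value minus the background mark of the same array, for ubiquitous subunits and their tissue-restricted forms (marked with an asterisk), each point 1 of the 12 arrays in the colour of its group. Ubiquitous forms lie above the line at 0 and restricted forms below it, apart from Cox6b2, which lies on it.

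Genes that serve the chain were described from lists. Of the mitochondrial genome 6 clusters were measured. Those named ND3 and COX1 each cover that gene alone among coding genes, while the cluster named ND4L also covers ND4, that named ND5 reaches over ND6 and CYTB (complex III), that named ND6 overlaps ND5, and that named ATP8 also covers ATP6 and COX3 (complex IV). These overlaps are by position, and strand was not compared. Values of the 6 clusters are given by cluster name and not by complex. In wild-type cells all 6 were higher in basal than in suprabasal samples, by 0.14 (COX1 and ND5) to 0.52 (ND6), and none was called. Their median was 0.255, beside 0.113 over the bright clusters, of which 79.0% were higher. In basal cells all 6 were lower in bitransgenic samples, with a median of -0.185. The nuclear-encoded members had a median of 0.003 and the bright clusters one of -0.02, with 55.0% lower. The X721_05 array was the lowest basal array for all 6. The X722_07 array lay within the wild-type basal range for ND4L (10.96), ND5 (12.65), COX1 (12.88) and ATP8 (12.60). It lay just under that range for ND3 (9.89) and ND6 (8.70). The X667_05 basal array lay under the range for ND4L (10.85), ND5 (12.53), COX1 (12.72) and ATP8 (12.44). For ND3 (10.02) and ND6 (8.72) it lay within the range. None of the 6 was called between the basal genotypes, and the difference between the nuclear and mitochondrial subunits was not tested. Mitochondrial transcripts are polycistronic and the clusters overlap in part by position, so the 6 are not taken as independent.

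Assembly factors of the complexes (39 measured, 24 of them under background on all arrays) had a median wild-type layer difference of 0.137. The 73 mitochondrial ribosomal proteins, 24 of them under background on all arrays, had one of 0.17, with 68 above 0. The 15 cristae and inner membrane genes had a median of 0.197 with all 15 above 0, and 21 enzymes of the citric acid cycle and pyruvate oxidation one of 0.17. The median was 0.2 over 17 regulators of mitochondrial biogenesis and 0.143 over 15 carriers and outer membrane genes. Of the 17 regulators 13 were under background on all arrays, and their range was from -0.973 to 0.727. Lower medians were found over 13 protein quality control and antioxidant genes (0.107, 4 below 0) and over 15 genes of cytochrome c and coenzyme Q (0.053, 5 below 0). Of these 15, 10 were under background on all arrays. In the same comparison the median was 0.113 over the bright clusters, with 79.0% above 0, and -0.047 over all clusters, with 38.9%. The bright clusters are an unlike set here, since the lists also hold genes under background. With cyclic loess only 46.5% of the bright clusters were above 0. No gene of these lists was called in any comparison. Among 16 glycolytic genes 1 was called: Pfkp, the platelet form of phosphofructokinase, was higher in wild-type basal cells by 0.65 (SE 0.123, limma adjusted p = 0.041), at 8.52 ± 0.23 against 7.87 ± 0.12 (SD, n = 3), and was above background on 6 of 12 arrays. In the same samples all 10 proliferation markers were higher in basal cells and 6 of them were called, where 0.406% of all clusters were called higher. Their part in the small basal excess of the subunits was not tested.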

How the data were processed

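Total RNA of 12 sorted keratinocyte samples, 3 in each of 4 groups, was measured on Affymetrix MTA-1_0 arrays (mm10, NetAffx build 34, per the file headers). The deposited log2 values are RMA signals made in Affymetrix Expression Console (per the submitters' processing notes). RMA corrects background, equalises the arrays' distributions and summarises probes. The signed fold changes, a score, and the p-values and q-values in the authors' deposited table come from an unpaired Student test with FDR, per the series' design text. They are quoted only where named.

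All 65956 non-control clusters were fitted with limma 3.58.1 in R 4.3.3 as 4 group means with eBayes moderation, and p-values were adjusted by Benjamini-Hochberg over all of them. Calls are at an adjusted p under 0.05. The limma step was tested on simulated data. The members, gene lists, background mark and sex pattern were chosen with earlier results of these data known.

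Per comparison the text names called members, or, in a direction without a call, the 5 with the smallest p, with values of core subunits and, as groups, tissue-restricted and X-linked ones. Ndufb7, Cox6c, Cox7a2l's second layer, Pfkp and the shares by code were singled out after their values were seen. Replicate codes paired the wild-type layers: deviations from group means correlated at 0.269, 0.533 and 0.37 in the 3 pairs. Unlike wild-type codes correlated at -0.425 to 0.061. The 2 bitransgenic pairs correlated at 0.136 and 0.241 and unlike bitransgenic codes at -0.314 to 0.231, so the pairing was not clear there. Codes that share their first number paired the suprabasal genotypes (0.308, 0.333 and 0.485) but not the basal ones (-0.157 and 0.229). Alternatives changed scaling, filters, moderation, weights, blocks, sex, cluster choice and single arrays. No platform annotation beyond RefSeq symbols and coordinates (GRCm38.p6) was used, except the platform's own symbols, which matched for 78 of 85 members.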

Additional observations from a re-analysis of the deposited data

How the results depend on the processing

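The number of members called in the wild-type layer comparison, 1 in the report, became 0 with arrays centred on their medians, cyclic loess, trended and robust moderation, a fixed replicate block, only the 2 groups compared, the methods' Student test, a term for sex, only members above background on all 12 arrays, and without both arrays of X721_08 or the 2 arrays with the highest background mark. The last 3 were chosen after seeing the data, as was leaving out both arrays of X721_05, where the count stayed 1 but the member called was Uqcrc1 (0.0477) and no longer Cox7a1 (0.0547). Keeping only members above background on all 12 arrays leaves out Cox7a1 itself, so that setting could not keep its call. The number called became 3 with only clusters above the median of means or with 1 symbol, and 4 with array weights or a random replicate block. Leaving out single arrays gave 0 to 3: it was 0 for the basal wild-type X682_11 and X721_08, all 3 basal bitransgenic arrays, the suprabasal wild-type X682_11 and X721_08 and the suprabasal bitransgenic X667_05 and X682_05, 3 for the basal wild-type X667_06 and the suprabasal bitransgenic X721_05, and 1 for the suprabasal wild-type X667_06. In the other comparisons the count was 0 in every alternative run.

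Centring arrays moved the member median to 0.227 in the wild-type layer comparison and to -0.21 in the interaction, where the medians of all clusters moved from -0.047 to 0.05 and from 0.06 to -0.043. With a term for sex the genotype medians were -0.092 in basal and -0.007 in suprabasal cells. In that fit X721_05 was the only bitransgenic code with the sex pattern of the wild-type arrays. The other 144 medians stayed within 0.094, the SD of array medians within groups. That width exceeds some of the medians themselves, so a median could come near 0 or change sign within it. With cyclic loess the wild-type layer median went from 0.13 to 0.039 and the bitransgenic one from 0.03 to -0.007. Uqcrc1 in the wild-type layer comparison was also called with array weights (limma adjusted p = 0.0451), a random replicate block (0.0444) and without the suprabasal X721_05 array (0.0282). Named values that changed sign were Ndufa4 between basal genotypes with a term for sex (-0.065), and in the interaction Atp5d with arrays centred (-0.05) or without both X721_05 arrays (-0.013) and Cox8c with cyclic loess (-0.019). None of these was called.

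The limits are the 3 arrays per group, the members under background on some (20) or all (17) arrays, and clusters that lie on pseudogenes or overlap neighbouring genes by position. The cause of the changes with setting was not tested.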
